A study of Mus musculus with 30 samples.

Results

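Glucocorticoid hormone is known to induce, besides the classical targets of its receptor, a set of genes that brake growth, move cells from glucose to fat as fuel and guard against stress. 10 of them were followed here in mouse brain: Ddit4, Cdkn1a, Pdk4, Angptl4, Mt1, Mt2, Txnip, Irs2, Gpd1 and Crispld2. They were taken as a named set, matched by symbol, and all 10 were found among the 48820 gene entries of the count table.

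The glucocorticoid receptor (Nr3c1) is a hormone-activated transcription factor that binds DNA and raises the transcription of nearby genes. Several of the 10 genes have other inputs as well: fatty acids act on Pdk4 and Angptl4 through PPAR factors, zinc acts on Mt1 and Mt2 through MTF1, p53 acts on Cdkn1a and glucose acts on Txnip. In the brain these genes are active in glia, in the vessel wall and in neurons, and peripheral inflammation reaches them both through cytokines and through adrenal hormone.

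The study modelled Gulf War Illness in adult male wild-type C57BL/6J mice of 8 to 12 weeks, and RNA of hippocampus and frontal cortex was sequenced. Every mouse, those given saline included, had drunk corticosterone (CORT, the main glucocorticoid of rodents; 200 mg/L, with 0.6% ethanol) during 7 days and had been injected on day 8 with diisopropyl fluorophosphate (DFP, an inhibitor of acetylcholinesterase; 4 mg/kg). Further CORT courses of 7 days followed in alternate weeks, up to 5 weeks. The last day brought either lipopolysaccharide (LPS, a bacterial wall component that activates innate immunity; 0.5 mg/kg under the skin) or saline. The groups of each tissue were thus CORT+DFP+Saline collected at 6 h (3 libraries) and CORT+DFP+LPS collected at 6, 12 and 24 h (4 libraries each). Saline was collected at 6 h alone, so the 12 h and 24 h comparisons differ from it in collection time as well as in LPS. Groups without CORT and DFP were not analysed here, and neither was a hippocampal saline library that the submitters had set aside for poor quality. The labels give mouse codes, and 14 of the 16 mice gave both tissues.

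The 30 libraries held between 16826882 and 33034295 counts. Values are given in the usual CPM unit, with library sizes scaled by TMM over all 30 libraries, and each of the 10 genes had at least 40 counts in every library. The 6 markers of hippocampal neurons summed to between 689.9 and 790.0 CPM in hippocampus and between 141 and 218 CPM in cortex, and the 6 of neocortical neurons to between 162 and 219 CPM in hippocampus and between 478 and 744 CPM in cortex, so the tissue labels fitted their markers. In whole tissue, a smaller number of cells of a type and less RNA per cell cannot be told apart.

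Some libraries stood apart in ways that touch the results. The 6 choroid plexus markers summed to 1315 CPM in hippocampal saline library A222, to 2395 CPM in hippocampal LPS 12 h library A261 and to 1045 CPM in cortical saline library A224, against at most 475 CPM in each of the other libraries. The 6 neutrophil markers summed to between 2.81 and 9.31 CPM in hippocampal LPS libraries, against 0.035 to 0.244 CPM in saline, and to between 6.62 and 20.9 CPM in cortical LPS libraries, against 0 to 0.795 CPM in saline, where Ly6g was at 0 in both tissues. The 6 microglial markers summed to between 272 and 299 CPM in hippocampus 24 h after LPS and to between 152 and 197 CPM after saline. The 6 astrocyte markers of hippocampus summed to between 1109 and 1135 CPM at 6 h and to between 1267 and 1449 CPM at 12 h and 24 h. After saline they summed to between 980.3 and 1047 CPM. In cortex the astrocyte markers summed to between 943 and 1139 CPM after LPS, against 811 to 936 CPM after saline. Of these 6 markers, 1, 2 and 2 passed as higher in cortex at 6, 12 and 24 h, and none as lower. Their median log2 fold changes there were 0.112, -0.00381 and 0.0753. The 6 endothelial markers of hippocampus summed to between 158 and 166 CPM at 6 h, 141 and 172 CPM at 12 h and 167 and 191 CPM at 24 h, where saline libraries had 140.0 to 155 CPM. Of these 6, 1, 1 and 2 passed as higher and 1, 2 and 0 as lower at the 3 times. In cortex at 24 h the endothelial sums were 208 to 238 CPM against 173 to 196 CPM after saline, the microglial ones 213 to 295 CPM against 140.1 to 191 CPM, and those of mural cells 132 to 147 CPM against 106 to 123 CPM. Of the 6 markers of each, 1, 3 and 1 passed as higher there and none as lower. In hippocampus the meningeal markers ran from 68.8 to 132 CPM after LPS, against 57.8 to 72.4 CPM after saline. Of these 6, 1, 3 and 0 passed as higher at 6, 12 and 24 h, and none as lower. The neuronal markers of hippocampus ran from 5518 to 6401 CPM after LPS, against 6198 to 6393 CPM after saline. Of those 6, 1 passed as lower at 12 h and none passed at 6 h or 24 h. In cortex the neuronal sums ran from 6037 to 7162 CPM after LPS, against 6882 to 8117 CPM after saline. None of the 6 neuronal markers passed there, at median log2 fold changes of -0.154, -0.199 and -0.179 at 6, 12 and 24 h. Cortical meningeal sums ran from 36.2 to 54.1 CPM after LPS, against 37.3 to 47.4 CPM. Sums for mural cells and red cells overlapped between LPS and saline in hippocampus, at 109 to 138 CPM against 107 to 132 CPM, and at 361 to 590.0 CPM against 398 to 529 CPM. The part of these cell types in the results was not tested.

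The saline libraries of a tissue also differed among themselves, and 19 other genes known from the glucocorticoid receptor were set beside the 10. In hippocampus, mouse A226 had the lowest of the 3 saline values for 8 of the 10 genes and for 18 of the 19 others, where it was lowest for 37.6% of all genes. Mouse A222 was highest for 8 of the 10 and for 12 of the 19, where it was highest for 36.0% of all genes. In cortex, mouse A224 was highest for 7 of the 10 and for 15 of the 19, where it was highest for 34.7% of all genes. These positions are a description of 3 libraries a tissue, with no test.

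Set against the mean of the 12 LPS libraries of the tissue, the median log2 ratio of the 10 genes was 0.67 in A222, 0.54 in A224 and 0.24 in A226 of hippocampus, and 0.35 in A223, 0.53 in A224 and 0.26 in A226 of cortex. The median of the 19 other genes was 0.75, 0.73 and 0.38 in hippocampus and 0.45, 0.68 and 0.53 in cortex, in the same orders of mice. All 6 medians of each list were above 0, that is, higher in the saline library than in the mean after LPS. Both lists were chosen with earlier results of these data known, and the ratios use the same values as the comparisons of LPS with saline. The shared direction is therefore no independent evidence. The libraries with high choroid plexus markers (A222 in hippocampus, A224 in cortex) were also those with the highest median, and A224 in hippocampus had a median of 0.54 with 92.4 CPM of those markers, the lowest of its group.

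**Figure D1:**
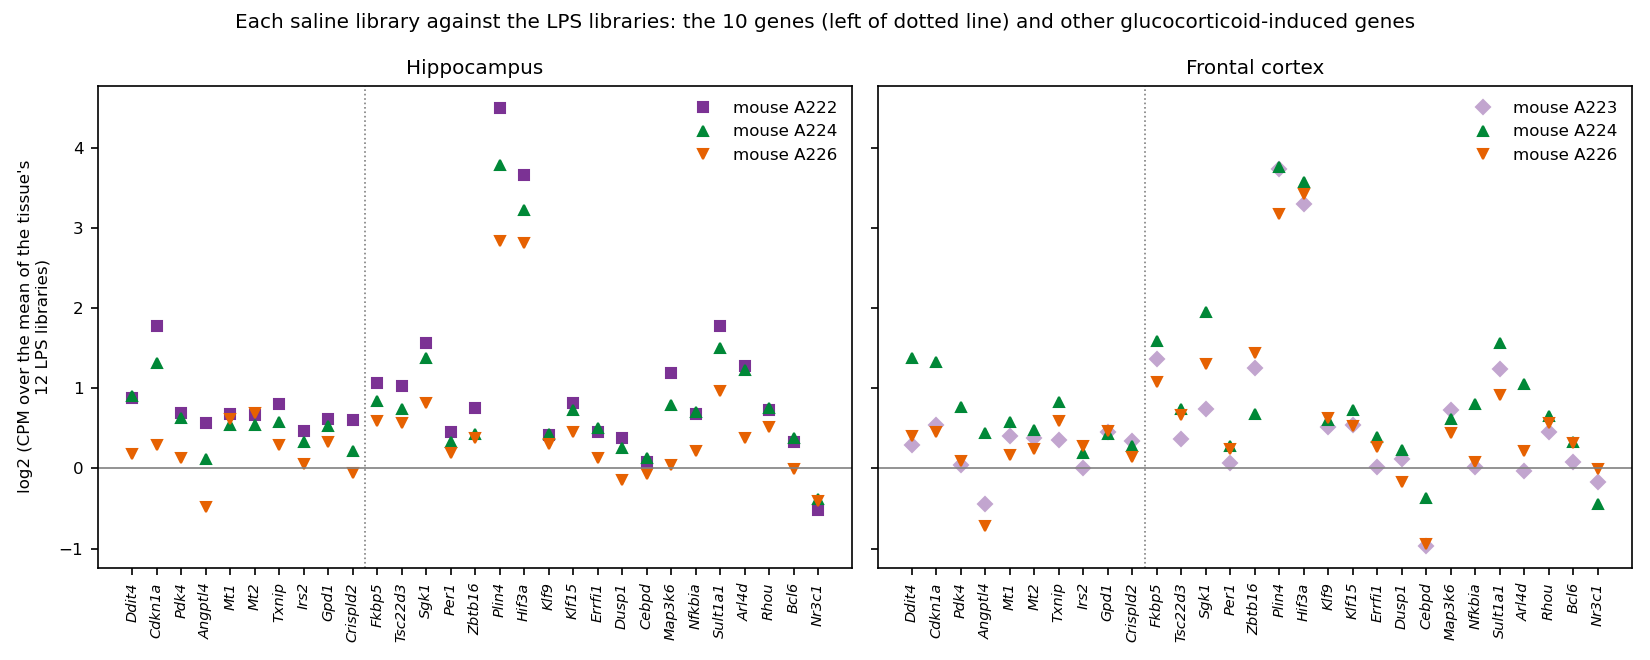
Each saline library against the LPS libraries of its tissue. The vertical axis gives log2 of the CPM in a saline library over the mean CPM of the 12 LPS libraries of the tissue, the horizontal axis the 10 genes and, right of the dotted line, the 19 other genes of the glucocorticoid list, and the symbols mark mice. In hippocampus mouse A226 (orange) lies lowest for most genes, and in cortex mouse A224 (green) lies highest for most.

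Most of the 10 genes were lower after LPS. edgeR's quasi-likelihood test, with Benjamini-Hochberg adjustment over all genes tested and a threshold of 0.05, was used for every comparison, and none of the 10 genes passed it as higher after LPS at any time in either tissue. In hippocampus, 4 of the 10 passed as lower at 6 h (Ddit4, Cdkn1a, Irs2 and Gpd1), where 2.15% of the 17289 genes tested passed as lower and 2.96% as higher. All 10 had a log2 fold change below 0 at 6 h, where 51.3% of all genes did. An unadjusted p under 0.05 was found for 7 of the 10 and for 2515 of all genes. DESeq2 passed 5 of the 10 and limma-voom 6. At 12 h 8 of the 10 passed as lower, all but Angptl4 and Crispld2, where 6.28% of genes passed as lower and 6.07% as higher. At 24 h the same 8 genes passed, where 6.6% of genes passed as lower and 6.76% as higher. The median log2 fold change of the 10 genes was -0.36 (6 h), -0.60 (12 h) and -0.59 (24 h), and that of all genes lay within 0.01 of 0.

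In frontal cortex the calls began at 12 h. At 6 h none of the 10 passed (5 had an unadjusted p under 0.05, DESeq2 passed 3 and limma-voom 1), where 1.2% of the 17111 genes tested passed as lower and 2.3% as higher. At 12 h and again at 24 h 6 of the 10 passed as lower: Ddit4, Cdkn1a, Mt1, Mt2, Txnip and Gpd1. The shares of all genes were 2.99% lower and 4.13% higher at 12 h, and 2.38% lower and 3.73% higher at 24 h. The median of the 10 genes was -0.23, -0.57 and -0.65.

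**Figure D2:**
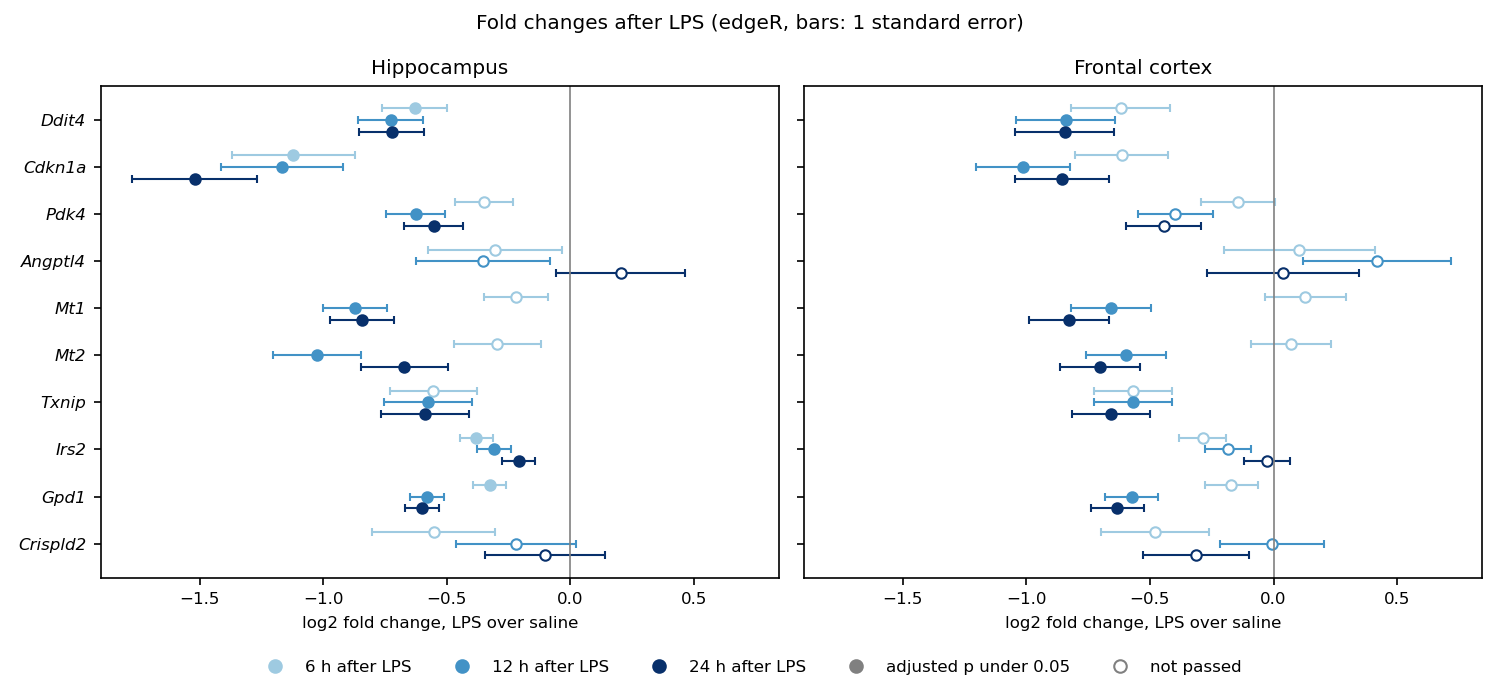
Fold changes after LPS. The horizontal axis gives the log2 fold change of LPS over saline for each of the 10 genes in hippocampus (left) and frontal cortex (right) at 6, 12 and 24 h, with bars of 1 standard error and filled points where the adjusted p was under 0.05. All filled points lie left of 0, and Angptl4 and Crispld2 have none.

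Between neighbouring times after LPS, few of the 10 moved. From 6 h to 12 h, Mt1 and Gpd1 fell in hippocampus (2 of 10, where 1.0% of all genes passed as lower). Mt1 and Mt2 fell in cortex (2 of 10, where 0.614% did). Of these, only Gpd1 in hippocampus had already passed as lower than saline at 6 h. From 12 h to 24 h none of the 10 passed in hippocampus (1 at an unadjusted p under 0.05, 0 by DESeq2 and 0 by limma-voom), where 2.14% of all genes passed in either direction. None passed in cortex either (0 at an unadjusted p under 0.05, 0 by DESeq2 and by limma-voom), where 0.0% of all genes did, although 310 had an unadjusted p under 0.05.

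**Figure D3:**
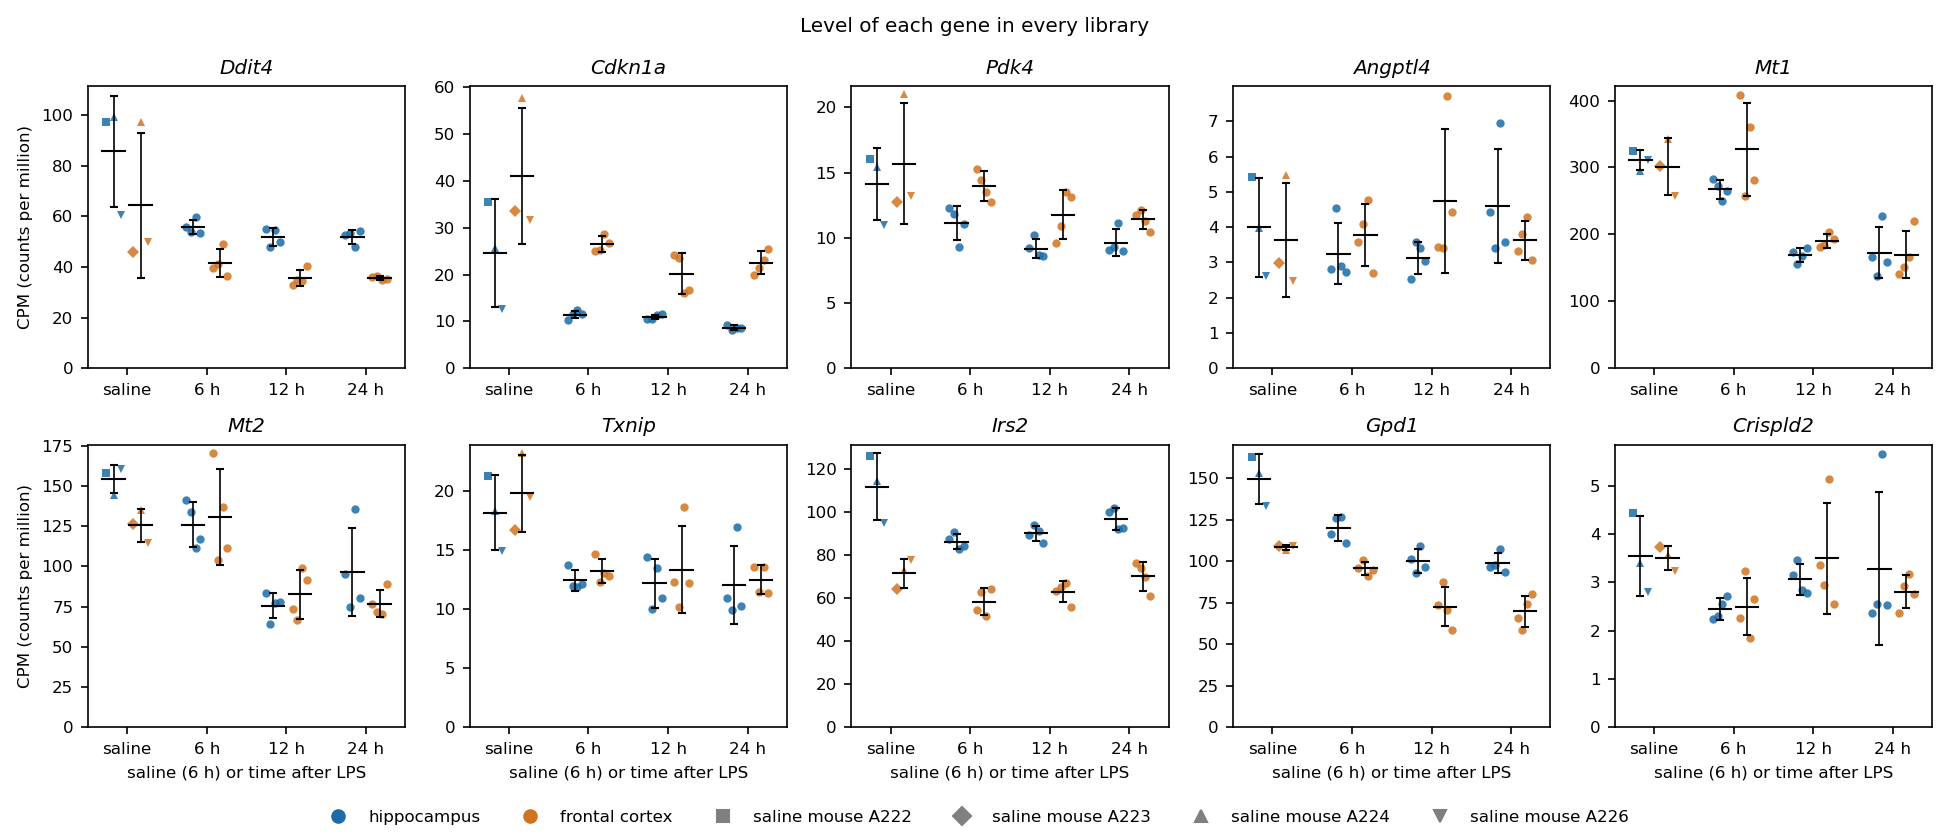
Level of each gene in every library. The vertical axes give CPM (linear, starting at 0), the horizontal axes saline and the time after LPS, points are libraries of hippocampus (blue) and frontal cortex (orange), and lines are means with 1 SD. The saline libraries of Ddit4 and Cdkn1a are widely spread, and the LPS libraries lie close together.

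Ddit4 (REDD1; on GRCm38, chr10:59949669-59951834, minus strand), an inhibitor of mTORC1 that glucocorticoid induces in muscle and brain, was high in some saline mice and low after LPS. In hippocampus it had 97.5, 99.4 and 60.4 CPM after saline (mice A222, A224 and A226), 55.8, 54, 59.6 and 53.5 CPM at 6 h, 54.9, 48, 54.6 and 49.7 CPM at 12 h, and 52.8, 53.4, 48 and 54.1 CPM at 24 h. In cortex it had 46.1, 97.4 and 49.7 CPM after saline (mice A223, A224 and A226), 39.4, 41, 49.1 and 36.3 CPM at 6 h, 33, 34.9, 34.4 and 40.4 CPM at 12 h, and 35.9, 36.5, 34.7 and 35.4 CPM at 24 h. All LPS libraries lay below all saline libraries in hippocampus, narrowly so for saline mouse A226. In cortex the groups overlapped at 6 h and did not overlap at 12 h and 24 h, and mouse A224 stood far above the other saline mice.

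The log2 fold change of Ddit4 in hippocampus was -0.63 ± 0.13 at 6 h (SE; adjusted p = 0.0121), -0.73 ± 0.13 at 12 h (adjusted p = 0.00217) and -0.72 ± 0.13 at 24 h (adjusted p = 0.00217). In cortex it was -0.62 ± 0.20 at 6 h (adjusted p = 0.119), -0.84 ± 0.20 at 12 h (adjusted p = 0.0186) and -0.84 ± 0.20 at 24 h (adjusted p = 0.0208). The hippocampal 6 h call was lost without saline mouse A222 (-0.52, adjusted p = 0.0708) and without saline mouse A224 (-0.51, adjusted p = 0.0527). Without saline mouse A224 the cortical 12 h and 24 h values were -0.42 each, with adjusted p of 0.019 and 0.0211, and the 6 h value passed without saline mouse A223 (-0.81, adjusted p = 0.0312) and was -0.19 without saline mouse A224. Fitted on the compared groups alone, the adjusted p of Ddit4 was 0.174 at 6 h and 0.0692 at 12 h in hippocampus, and 0.161 at 12 h and 0.201 at 24 h in cortex.

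Cdkn1a (p21; chr17:29090976-29100727, plus strand), a cyclin-dependent kinase inhibitor and a target of p53 as well as of glucocorticoid, had the largest fold change of the 10. In hippocampus it had 35.6, 25.7 and 12.6 CPM after saline, 10.4, 11.5, 12.3 and 11.6 CPM at 6 h, 10.5, 10.6, 11.3 and 11.5 CPM at 12 h, and 9.33, 8.06, 8.52 and 8.56 CPM at 24 h. In cortex it had 33.6, 57.8 and 31.6 CPM after saline, 25.1, 25.1, 28.7 and 26.8 CPM at 6 h, 24.2, 23.6, 16.1 and 16.6 CPM at 12 h, and 19.9, 21.4, 23.1 and 25.5 CPM at 24 h. No LPS library reached the lowest saline library in either tissue. Saline mouse A226 lay just above the LPS range in hippocampus, and saline mouse A224 was the highest in cortex.

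In hippocampus Cdkn1a fell by 1.12 ± 0.25 (log2, SE) at 6 h (adjusted p = 0.0209), by 1.17 ± 0.25 at 12 h (adjusted p = 0.00808) and by 1.52 ± 0.25 at 24 h (adjusted p = 0.00152), the last a level 2.87-fold lower than after saline. In cortex the log2 fold change was -0.61 ± 0.19 at 6 h (adjusted p = 0.0948), -1.01 ± 0.19 at 12 h (adjusted p = 0.00313) and -0.86 ± 0.19 at 24 h (adjusted p = 0.0116). Leaving out 1 library at a time moved the hippocampal 6 h value between -1.43 and -0.75. In the same way the hippocampal 12 h value moved between -1.48 and -0.80 and the 24 h value between -1.83 and -1.15. The hippocampal 6 h call was lost without saline mouse A224 (-1.09, adjusted p = 0.0742) and without LPS mouse A240 (-1.07, adjusted p = 0.0601), A241 (-1.12, adjusted p = 0.0554) or A243 (-1.13, adjusted p = 0.0544). The cortical 24 h value was -0.53 without saline mouse A224 (adjusted p = 0.0442), and the 6 h value passed without saline mouse A226 (-0.78, adjusted p = 0.0491) and was -0.29 without saline mouse A224. Fitted on the compared groups alone, no Cdkn1a call remained, with adjusted p of 0.211, 0.138 and 0.0527 at the hippocampal times and of 0.0728 at 12 h and 0.0968 at 24 h in cortex.

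Of the genes of fuel use, Gpd1 (chr15:99717515-99725005, plus strand), the cytosolic glycerol-3-phosphate dehydrogenase that glucocorticoid induces in oligodendrocytes, fell in both tissues. In hippocampus it had 163, 153 and 133 CPM after saline, 116, 126, 126 and 111 CPM at 6 h, 101, 92.7, 109 and 96.3 CPM at 12 h, and 96.5, 97.8, 107 and 93.2 CPM at 24 h. In cortex it had 109, 107 and 109 CPM after saline, 95.7, 101, 91.3 and 94.3 CPM at 6 h, 73.4, 87.6, 70.8 and 58.7 CPM at 12 h, and 66, 58.8, 74 and 80.1 CPM at 24 h. All LPS libraries lay below all saline libraries in both tissues, and the cortical saline libraries were within a few CPM of each other.

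Gpd1 fell in hippocampus by 0.33 ± 0.07 (log2, SE) at 6 h (adjusted p = 0.00445), by 0.58 ± 0.07 at 12 h (adjusted p = 3.68e-06) and by 0.60 ± 0.07 at 24 h (adjusted p = 2.5e-06). In cortex its log2 fold change was -0.17 ± 0.11 at 6 h (adjusted p = 0.38), -0.57 ± 0.11 at 12 h (adjusted p = 0.002) and -0.63 ± 0.11 at 24 h (adjusted p = 0.000953). None of these calls against saline was lost when any 1 library was left out. The hippocampal 6 h call was lost without A222 and A261 together, those with high choroid plexus markers (adjusted p = 0.0542). The 6 oligodendrocyte markers summed to between 2539 and 3476 CPM in hippocampal LPS libraries, against 2726 to 3166 CPM after saline, and to between 4239 and 5660 CPM in cortical LPS libraries, against 4287 to 5630 CPM after saline. Of these 6 markers 0 passed at 6 h in either tissue. In hippocampus 0 were higher and 1 lower at 12 h, and 4 were higher and 1 lower at 24 h, with a median log2 fold change of 0.27. In cortex 0 were higher and 1 lower at 12 h, and 1 was higher and 1 lower at 24 h. The part of these cells in the values of Gpd1 was not tested.

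The fall of Gpd1 from 6 h to 12 h was 0.25 ± 0.06 in hippocampus (log2, SE, adjusted p = 0.0375). In cortex it was 0.40 ± 0.10, which did not pass (adjusted p = 0.0544). The hippocampal call was lost without A240, A241, A242, A258, A259 or A261, each left out alone, at log2 fold changes between -0.27 and -0.22 and adjusted p between 0.0666 and 0.126. The cortical difference passed without A259 (-0.50, adjusted p = 0.013).

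Pdk4 (chr6:5483351-5496309, minus strand), the kinase that shuts off pyruvate dehydrogenase and so spares glucose, fell in hippocampus. There it had 16.1, 15.4 and 11 CPM after saline, 12.3, 11.9, 9.29 and 11.1 CPM at 6 h, 9.2, 10.2, 8.71 and 8.6 CPM at 12 h, and 9.08, 9.29, 11.1 and 9.02 CPM at 24 h. Only at 12 h did the LPS libraries all lie below the saline ones. The log2 fold change was -0.35 ± 0.12 at 6 h (SE; adjusted p = 0.107), -0.63 ± 0.12 at 12 h (adjusted p = 0.000855) and -0.55 ± 0.12 at 24 h (adjusted p = 0.00259). Without saline mouse A226 the 6 h value passed (-0.50, adjusted p = 0.00544).

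In cortex Pdk4 had 12.8, 21 and 13.2 CPM after saline, and its LPS libraries ranged from 9.58 to 15.3 CPM, with mouse A224 the highest of all. None of its cortical comparisons passed, at log2 fold changes of -0.14 ± 0.15, -0.40 ± 0.15 and -0.44 ± 0.15 at 6, 12 and 24 h (SE; adjusted p = 0.621, 0.14 and 0.108). Without saline mouse A224 they were 0.12, -0.14 and -0.18, so that the sign at 6 h turned.

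Irs2 (chr8:10984681-11008458, minus strand), an adaptor that carries the signal of the insulin receptor and is raised by FoxO factors, fell in hippocampus, by the largest amount at 6 h. In hippocampus it had 126, 114 and 94.8 CPM after saline, 87.3, 90.4, 82.7 and 84.1 CPM at 6 h, 89.3, 93.7, 91.2 and 85.7 CPM at 12 h, and 100.1, 102, 91.9 and 92.5 CPM at 24 h. At 6 h and 12 h all LPS libraries lay below saline, and at 24 h 2 of the 4 lay above saline mouse A226. The log2 fold change was -0.38 ± 0.07 at 6 h (SE; adjusted p = 0.000936), -0.31 ± 0.07 at 12 h (adjusted p = 0.00318) and -0.21 ± 0.07 at 24 h (adjusted p = 0.0421).

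The 12 h call of Irs2 was lost without A222 and A261 together (-0.19, adjusted p = 0.106). The 24 h call was lost without saline mouse A222 (-0.11, adjusted p = 0.369), saline mouse A224 (-0.19, adjusted p = 0.124) or LPS mouse A274 (-0.22, adjusted p = 0.0538), A276 (-0.18, adjusted p = 0.106) or A278 (-0.19, adjusted p = 0.118). The steps between LPS times did not pass (0.07 ± 0.06 from 6 h to 12 h, adjusted p = 0.662, and 0.10 ± 0.06 from 12 h to 24 h, adjusted p = 0.488, both log2 with SE). In cortex Irs2 ranged from 64 to 77.4 CPM after saline, from 51.5 to 64.1 CPM at 6 h, from 55.9 to 67.1 CPM at 12 h and from 60.8 to 76.2 CPM at 24 h. Each LPS range overlapped the saline range, at 6 h by a margin of a fraction of a CPM, and the log2 fold changes of -0.29 ± 0.09, -0.18 ± 0.09 and -0.03 ± 0.09 (SE) did not pass (adjusted p = 0.111, 0.297 and 0.942).

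Txnip (chr3:96557957-96561883, plus strand) is an alpha-arrestin that binds thioredoxin and limits glucose uptake. It passed as lower at 12 h and 24 h in both tissues. Leaving out certain single libraries removed these calls, at times with little change of the fold change. At 6 h it did not pass, although all its libraries lay below the saline ones in both tissues. In hippocampus it had 21.3, 18.3 and 14.9 CPM after saline, 13.8, 12, 11.9 and 12.1 CPM at 6 h, 14.4, 10, 13.5 and 11 CPM at 12 h, and 11, 9.95, 17 and 10.3 CPM at 24 h. In cortex it had 16.7, 23.2 and 19.6 CPM after saline, 14.7, 12.3, 13.1 and 12.9 CPM at 6 h, 12.3, 10.2, 18.7 and 12.2 CPM at 12 h, and 13.6, 11.5, 13.6 and 11.4 CPM at 24 h. A single library a group, A276 in hippocampus at 24 h and A260 in cortex at 12 h, reached into the saline range.

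The log2 fold change of Txnip in hippocampus was -0.55 ± 0.18 (adjusted p = 0.105), -0.58 ± 0.18 (adjusted p = 0.0477) and -0.59 ± 0.18 (adjusted p = 0.0401) at 6, 12 and 24 h. In cortex it was -0.57 ± 0.16 (adjusted p = 0.0564), -0.57 ± 0.16 (adjusted p = 0.0332) and -0.66 ± 0.16 (adjusted p = 0.0153). These calls were thin: the hippocampal ones were lost without saline mouse A222 (-0.44 at 12 h and -0.45 at 24 h, adjusted p = 0.204 and 0.184) and without A224 (-0.58 and -0.59, adjusted p = 0.113 and 0.0993). They were also lost without A259, A260 or A261 at 12 h (adjusted p = 0.126, 0.0555 and 0.122, log2 fold changes -0.49, -0.62 and -0.52) and without A274, A275 or A278 at 24 h (adjusted p = 0.1, 0.102 and 0.11, log2 fold changes -0.54, -0.50 and -0.51). In cortex the 12 h call was lost without saline mouse A224 or A226 (-0.44 and -0.58, adjusted p = 0.15 and 0.0899) and without A258, A259 or A261 (-0.54, -0.47 and -0.54, adjusted p = 0.072, 0.0704 and 0.0885), and the 24 h call without saline mouse A224 (-0.53, adjusted p = 0.0925). The 6 h value passed without saline mouse A226 in hippocampus (-0.67, adjusted p = 0.0497) and without saline mouse A223 in cortex (-0.68, adjusted p = 0.0466). It also passed by DESeq2 (adjusted p = 0.0197 in hippocampus and 0.0161 in cortex) and by limma-voom (adjusted p = 0.00157 and 0.0372). With the compared groups alone its adjusted p was 0.00267 and 0.0192. In hippocampus 11 of 16 alternatives left the 6 h value above the threshold.

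Mt1 and Mt2 encode metallothioneins, small cysteine-rich proteins that bind zinc and copper, and in brain they are known mainly from astrocytes. On GRCm38 they lie side by side on the plus strand, Mt2 at chr8:94172664-94173568 and Mt1 at chr8:94179082-94180327, with 5513 bases between them. Their promoters are shown because these neighbours were lower at the same times. Each window runs from 250 bases before to 50 bases after the start that RefSeq gives on GRCm38.p6, chr8:94178839-94179138 for Mt1 and chr8:94172368-94172667 for Mt2, both on the plus strand. Capitals mark matches on either strand to the core of the metal response element, TGCACNC or TGCGCNC, the letters that MTF1 is known to bind.
Mt1 promoter: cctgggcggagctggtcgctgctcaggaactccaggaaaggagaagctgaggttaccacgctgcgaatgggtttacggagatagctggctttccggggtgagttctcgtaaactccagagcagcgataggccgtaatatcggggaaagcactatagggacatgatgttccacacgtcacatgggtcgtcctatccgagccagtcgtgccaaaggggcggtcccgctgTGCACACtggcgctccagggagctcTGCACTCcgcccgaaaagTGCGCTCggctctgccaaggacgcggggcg
Mt2 promoter: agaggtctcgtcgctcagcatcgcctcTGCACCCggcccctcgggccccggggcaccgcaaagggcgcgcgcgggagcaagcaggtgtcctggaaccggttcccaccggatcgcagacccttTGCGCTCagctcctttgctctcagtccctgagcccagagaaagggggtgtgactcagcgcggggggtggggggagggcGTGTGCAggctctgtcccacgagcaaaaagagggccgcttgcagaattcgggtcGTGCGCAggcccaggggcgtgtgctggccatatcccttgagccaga
The Mt1 window held 3 matches and the Mt2 window 4, where 1.97% of all 32851 windows of 300 bases held 3 or more. A match of these letters is a description, not a site.

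Mt1 and Mt2 passed as lower at 12 h and 24 h in both tissues, and neither passed at 6 h. In hippocampus Mt1 had 325, 295 and 312 CPM after saline, 283, 272, 250.1 and 265 CPM at 6 h, 174, 155, 168 and 179 CPM at 12 h, and 166, 138, 228 and 159 CPM at 24 h. Mt2 had 158, 144 and 160.5 CPM after saline, 141, 134, 112 and 117 CPM at 6 h, 83.1, 64.3, 77.3 and 77.7 CPM at 12 h, and 95.0, 74.9, 136 and 80.6 CPM at 24 h. All hippocampal LPS libraries lay below all saline libraries for both genes, and library A276 was the highest at 24 h for both.

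In cortex Mt1 had 303, 343 and 257 CPM after saline, 408, 257, 361 and 282 CPM at 6 h, 182, 183, 204 and 193 CPM at 12 h, and 140.3, 151, 167 and 219 CPM at 24 h. Mt2 had 126, 135 and 115 CPM after saline, 170.3, 104, 137 and 112 CPM at 6 h, 73.6, 66.5, 99.2 and 91.4 CPM at 12 h, and 76.6, 71.7, 70.2 and 89.0 CPM at 24 h. Of the 6 h libraries, 2 of 4 lay above the highest saline library for both genes, and all 12 h and 24 h libraries lay below it.

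Against saline, the log2 fold change of Mt1 in hippocampus was -0.22 ± 0.13 at 6 h (SE; adjusted p = 0.503), -0.87 ± 0.13 at 12 h (adjusted p = 0.000602) and -0.84 ± 0.13 at 24 h (adjusted p = 0.000737). That of Mt2 was -0.30 ± 0.18 (adjusted p = 0.516), -1.02 ± 0.18 (adjusted p = 0.00241) and -0.67 ± 0.18 (adjusted p = 0.0264). In cortex Mt1 had 0.13 ± 0.16 (adjusted p = 0.692), -0.66 ± 0.16 (adjusted p = 0.021) and -0.83 ± 0.16 (adjusted p = 0.00508). Mt2 had 0.07 ± 0.16 (adjusted p = 0.835), -0.60 ± 0.16 (adjusted p = 0.0335) and -0.70 ± 0.16 (adjusted p = 0.0142).

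Several of these calls were lost when certain single libraries were left out, at times with little change of the fold change. The hippocampal 24 h call of Mt2 was lost without any of A222, A224, A226, A274, A275 and A278 (-0.72 to -0.56, adjusted p between 0.0502 and 0.0887). In cortex the 12 h call of Mt1 was lost without saline mouse A223 (-0.65, adjusted p = 0.068) or A224 (-0.55, adjusted p = 0.0963). The 12 h call of Mt2 was lost without A223, A224, A226, A258 or A259 (-0.66 to -0.52, adjusted p between 0.0594 and 0.115), and the 24 h call without A223 (-0.70, adjusted p = 0.0519) or A224 (-0.64, adjusted p = 0.0659).

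From 6 h to 12 h Mt1 fell by 0.65 ± 0.12 in hippocampus (log2, SE; adjusted p = 0.016) and by 0.79 ± 0.15 in cortex (adjusted p = 0.0201). Mt2 fell by 0.67 ± 0.15 in cortex (adjusted p = 0.0407), and its -0.73 ± 0.17 in hippocampus did not pass (adjusted p = 0.0514). That hippocampal value of Mt2 passed by DESeq2 (adjusted p = 0.00277), by limma-voom (adjusted p = 0.000417) and with the compared groups alone (adjusted p = 0.00486). It also passed with both tissues in 1 fit (adjusted p = 0.0266), while leaving out single libraries gave it no call. The hippocampal call of Mt1 was lost without A240 (-0.62, adjusted p = 0.0552) or A259 (-0.61, adjusted p = 0.0559). In cortex the call of Mt1 was lost without A240, A242 or A261 (-0.79 to -0.66, adjusted p between 0.0542 and 0.0718) and that of Mt2 without A240, A242, A258, A259 or A261 (-0.71 to -0.51, adjusted p between 0.0733 and 0.118).

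The ratio of Mt1 to Mt2 CPM stayed between 1.68 and 2.41 over the hippocampal libraries and between 1.83 and 2.76 over the cortical ones. In hippocampus it ran from 1.94 to 2.05 after saline, from 2.01 to 2.26 at 6 h, from 2.10 to 2.41 at 12 h and from 1.68 to 1.97 at 24 h, so that the 24 h libraries lay below those of 6 h and 12 h. In cortex it ran from 2.24 to 2.54 after saline, from 2.40 to 2.63 at 6 h, from 2.06 to 2.76 at 12 h and from 1.83 to 2.46 at 24 h, and the ranges overlapped. Of the 6 astrocyte markers of hippocampus, 2 passed as higher and 1 as lower at both 12 h and 24 h, with median log2 fold changes of 0.12 and 0.05, and their part in the values of Mt1 and Mt2 was not tested. The genes are related copies, so reads of one may have been counted for the other or dropped, and the separate values are uncertain to that extent.

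**Figure D4:**
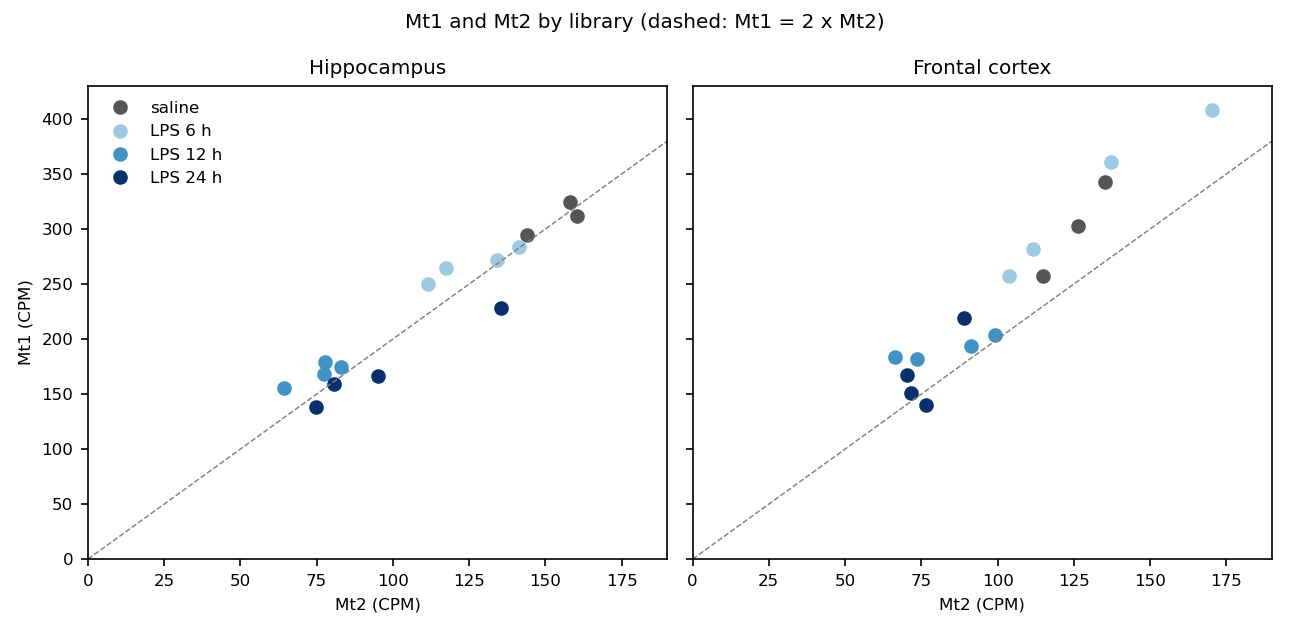
Mt1 against Mt2 by library. Each point is a library of hippocampus (left) or frontal cortex (right), with Mt2 CPM on the horizontal and Mt1 CPM on the vertical axis, coloured by group, and the dashed line marks Mt1 at 2 times Mt2. The points lie roughly along a line in each tissue, with most 12 h and 24 h libraries at its low end. Hippocampal 24 h library A276, at 136 CPM of Mt2 and 228 CPM of Mt1, lies within the 6 h range of Mt2.

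Angptl4 (chr17:33773750-33781830, minus strand), a secreted inhibitor of lipoprotein lipase, and Crispld2 (chr8:119992438-120052793, plus strand), a secreted protein that binds LPS, passed in no comparison. Angptl4 ranged from 2.61 to 5.42 CPM after saline, from 2.72 to 4.55 CPM at 6 h, from 2.52 to 3.57 CPM at 12 h and from 3.41 to 6.94 CPM at 24 h in hippocampus, and over 2.46 to 5.48, 2.69 to 4.76, 3.41 to 7.71 and 3.08 to 4.30 CPM in cortex. The ranges overlapped throughout, and the log2 fold changes against saline lay between -0.35 ± 0.27 and 0.42 ± 0.30 (SE). Crispld2 ranged from 2.81 to 4.44 CPM after saline, from 2.24 to 2.72 CPM at 6 h, from 2.79 to 3.47 CPM at 12 h and from 2.37 to 5.65 CPM at 24 h in hippocampus, and over 3.24 to 3.73, 1.85 to 3.23, 2.55 to 5.14 and 2.36 to 3.18 CPM in cortex.

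The 6 h libraries of Crispld2 all lay below the saline libraries in both tissues, by narrow margins, but the log2 fold changes of -0.55 ± 0.25 and -0.48 ± 0.22 (SE) did not pass (adjusted p = 0.301 and 0.245). At 24 h in hippocampus the value was -0.10 ± 0.24 (adjusted p = 0.844), and -0.51 without LPS mouse A276 (adjusted p = 0.0482). Both genes had low counts, between 48 and 167 for Angptl4 and between 40 and 136 for Crispld2, and changes of the size seen for Irs2 were not detectable at these standard errors.

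Per kilobase of exon, the metallothioneins had the highest level of the 10 genes and Crispld2 the lowest. In hippocampus after saline the means were 262 CPM per kb for Mt2, 249 for Mt1, 50.5 for Gpd1, 48.9 for Ddit4, 17.7 for Irs2, 6.93 for Cdkn1a, 5.83 for Txnip, 4.03 for Pdk4, 1.13 for Angptl4 and 0.744 for Crispld2. The libraries of Mt2 and Mt1, of Gpd1 and Ddit4, of Cdkn1a with both Txnip and Pdk4, and of Angptl4 and Crispld2 overlapped. In cortex after saline the means were 241.7 CPM per kb for Mt1, 213 for Mt2, 36.7 for Ddit4, 36.6 for Gpd1, 11.5 for Cdkn1a, 11.3 for Irs2, 6.35 for Txnip, 4.46 for Pdk4, 1.03 for Angptl4 and 0.735 for Crispld2.

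After saline, hippocampus and cortex were compared over all 30 libraries in a single fit. Irs2 was higher in hippocampus, at 112 ± 15.6 CPM, than in cortex, at 71.4 ± 6.81 CPM (SD, n = 3 each; log2 fold change 0.64 ± 0.09, SE; adjusted p = 9.5e-07). Gpd1 was higher in hippocampus too, at 149.7 ± 15 CPM against 108 ± 1.41 CPM in cortex (0.47 ± 0.10, adjusted p = 0.000402). Cdkn1a was lower in hippocampus, at 24.6 ± 11.5 CPM against 41.0 ± 14.5 CPM in cortex (-0.72 ± 0.23, adjusted p = 0.0174). The 2 higher and 1 lower of the 10 stand beside 19.9% of the 17650 genes tested that passed as higher and 17.2% as lower.

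The comparison of tissues changed with single saline libraries. The Cdkn1a call was lost without cortical library A224 (-0.40, adjusted p = 0.188) and without hippocampal library A226 (-0.41, adjusted p = 0.0939), while Ddit4 passed as higher in hippocampus without the same 2 libraries, each left out alone (0.84 and 0.63, adjusted p = 1.14e-05 and 0.00811). With the mouse as a replicate block, which draws on the saline mice A224 and A226 alone for this comparison, 3 genes were lower in hippocampus: Cdkn1a (-1.27, adjusted p = 4.21e-07), Pdk4 (-0.39, adjusted p = 0.0285) and Txnip (-0.40, adjusted p = 0.0313). Under the block Irs2 and Gpd1 had 0.44 and 0.37, with adjusted p of 0.000969 and 0.0297.

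Whether the tissues differed in their response to LPS was tested as an interaction, and no gene of the 10 differed at 6 h, 12 h or 24 h (0 at an unadjusted p under 0.05, 0 by DESeq2 and 0 by limma-voom at each time). Of all genes 0.0% passed at 6 h, where 1031 had an unadjusted p under 0.05, 0.0963% at 12 h and 0.125% at 24 h, which were 17 and 22 genes without the mouse block and 8 and 6 with it. The differences of the 10 genes, hippocampus minus cortex, lay between -0.78 ± 0.43 (Angptl4 at 12 h) and 0.21 ± 0.34 (Crispld2 at 24 h) on the log2 scale (SE). For Cdkn1a at 24 h the difference was -0.67 ± 0.33 (unadjusted p = 0.0524, adjusted p = 0.599). For Ddit4 at 6 h the interval of 2 standard errors around a difference of -0.00 ran from -0.51 to 0.51, so that the tissues are not shown to respond alike.

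Of 20 other genes that are known from the glucocorticoid receptor, 19 were tested, a list that was chosen with results of these libraries known and is no independent evidence of its direction. In hippocampus 14 were lower at 6 h, 17 at 12 h and 14 at 24 h, and Nr3c1, which encodes the receptor itself, was the 1 that was higher (0.36 ± 0.05, 0.38 ± 0.05 and 0.55 ± 0.05; log2, SE; adjusted p at most 5.61e-05). In cortex 9, 10 and 11 were lower, and Cebpd, an acute-phase transcription factor, was higher at 6 h (1.33 ± 0.22, adjusted p = 0.0016). The median log2 fold change of the 19 was -0.51, -0.78 and -0.66 in hippocampus and -0.45, -0.61 and -0.61 in cortex.

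Plin4, a lipid droplet coat protein, had 64.3, 39.1 and 20.4 CPM in hippocampus after saline and at most 8.03 CPM after LPS, and fell by 5.18 ± 0.46 at 24 h (log2, SE; adjusted p = 1.28e-05). Its saline libraries stood in the same order of mice as those of Cdkn1a, Pdk4, Angptl4, Txnip, Irs2, Gpd1 and Crispld2. Fkbp5 and Sult1a1 had that order too. Fkbp5, a chaperone that restrains the receptor, fell at 24 h by 0.89 ± 0.10 in hippocampus (adjusted p = 1.2e-05) and by 1.59 ± 0.14 in cortex (adjusted p = 1.8e-06). Sult1a1, a sulfotransferase, fell by 3.19 ± 0.18 in hippocampus at 24 h (adjusted p = 2.21e-09).

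The shares of all genes that passed at 6, 12 and 24 h stand beside the list above and each list below. In hippocampus these were 2.96%, 6.07% and 6.76% higher, and 2.15%, 6.28% and 6.6% lower. In cortex they were 2.3%, 4.13% and 3.73% higher, and 1.2%, 2.99% and 2.38% lower. Small counts in lists of this size lie near such shares, and no list was tested as a set. Of 15 genes of fatty acid use, 1, 3 and 3 were higher and 2, 3 and 4 lower in hippocampus at the 3 times, and 1 was higher and 2 lower in cortex at each time. Pnpla2, the main triglyceride lipase, fell by 0.73 ± 0.11 to 1.03 ± 0.11 over the hippocampal times and by 0.65 ± 0.09 to 1.01 ± 0.09 over the cortical ones (log2, SE; adjusted p at most 0.000174). Ucp2, a mitochondrial carrier, passed as lower at all times in both tissues, with log2 fold changes between -1.12 ± 0.19 and -0.68 ± 0.18 (adjusted p at most 0.0313). Plin2, another lipid droplet protein, named after its values were seen, was higher throughout, by 0.70 ± 0.15 to 0.92 ± 0.13 (adjusted p at most 0.0104), the opposite direction to Plin4.

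Of 15 genes of pyruvate dehydrogenase control and glycolysis, none passed in hippocampus at 6 h, 2 were higher and 3 lower at 12 h, and 1 was higher and 2 lower at 24 h, with none in cortex. Pdk2, a sister kinase of Pdk4, fell in hippocampus by 0.32 ± 0.05 at 24 h (log2, SE; adjusted p = 8.85e-05). Hk2, a hexokinase, rose by 0.61 ± 0.11 (adjusted p = 0.000436), and Slc2a1, the glucose transporter of the vessel wall, fell at 12 h by 0.56 ± 0.17 (adjusted p = 0.0453). Of 15 genes of insulin and FoxO signalling, 1 was higher in hippocampus at each time and 1, 3 and 2 lower, and 0, 3 and 3 were lower in cortex. Foxo3, a FoxO factor, and Igf1r, the receptor of IGF1, fell in cortex at 12 h by 0.47 ± 0.10 and 0.55 ± 0.13 (adjusted p = 0.00488 and 0.0117). Trib1, a pseudokinase, fell in hippocampus by 0.66 ± 0.09 at 24 h (adjusted p = 9.05e-06).

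Of 14 genes of the thioredoxin system, the alpha-arrestins and the glucose-sensing factors, 1 was higher at each time in each tissue and 1, 2 and 1 lower in hippocampus and 1 at each time in cortex. Arrdc2, an alpha-arrestin related to Txnip, was the one that passed as lower throughout, by 1.32 ± 0.16 to 1.63 ± 0.16 in hippocampus and by 1.14 ± 0.18 to 1.49 ± 0.18 in cortex (log2, SE; adjusted p at most 0.00125). Prdx1, a peroxidase that thioredoxin recharges, rose at 12 h by 0.23 ± 0.06 in hippocampus and by 0.40 ± 0.12 in cortex (adjusted p = 0.00993 and 0.0491), and Mlxip, a glucose-sensing factor, fell in hippocampus by 0.26 ± 0.07 (adjusted p = 0.0094).

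Of 14 genes of metal handling, 3, 4 and 2 were higher and 0, 2 and 3 lower in hippocampus, and 2 were higher and none lower in cortex at each time. Lcn2, an iron-siderophore carrier of the acute phase, rose by 5.65 ± 0.27 in hippocampus (log2, SE; adjusted p = 1.49e-11) and by 5.98 ± 0.55 in cortex (adjusted p = 4.13e-05) at 6 h. Hmox1, which degrades haem, rose by 0.58 ± 0.14 and 0.52 ± 0.13 (adjusted p = 0.0118 and 0.0228), and Slc39a8, a zinc importer, rose in hippocampus at 12 h by 0.65 ± 0.19 (adjusted p = 0.0225). Mt3, the brain metallothionein, named after its values were seen, fell in hippocampus by 0.18 ± 0.05 at 12 h and by 0.35 ± 0.05 at 24 h (adjusted p = 0.0201 and 2.75e-05).

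Of the p53 targets beside Cdkn1a, 12 were tested in hippocampus, where 0, 1 and 0 were higher and 3, 3 and 1 lower, and 13 in cortex, where 0, 0 and 1 were higher and 1, 3 and 2 lower. Sesn1, a stress-induced inhibitor of mTORC1, passed as lower at all times in both tissues, with log2 fold changes between -0.45 ± 0.06 and -0.30 ± 0.06 (SE; adjusted p at most 0.00622). Trp53inp1, a p53 cofactor, fell in cortex by 0.53 ± 0.12 at 24 h (adjusted p = 0.00751), and Zmat3, an RNA-binding protein, by 0.42 ± 0.11 at 12 h (adjusted p = 0.022). Of 11 CDK inhibitors, cyclins and CDKs, 1, 2 and 2 were higher in hippocampus, 0, 0 and 1 in cortex, and none lower. Ccnd1, cyclin D1, rose in hippocampus by 0.45 ± 0.07 at 6 h (adjusted p = 0.000214), and Cdk6 by 0.67 ± 0.15 at 12 h (adjusted p = 0.00396).

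Of 15 genes of the mTORC1 pathway and the ATF4 stress response, 4, 2 and 0 were higher and 0, 1 and 1 lower in hippocampus, and 3, 1 and 1 were higher and none lower in cortex. Ddit4l, the paralog of Ddit4, was higher in hippocampus at 6 h (0.71 ± 0.20, SE; adjusted p = 0.0476), the opposite direction to Ddit4, and had -0.17 ± 0.17 in cortex (adjusted p = 0.606). Eif4ebp1, a repressor of translation that mTORC1 inactivates, rose in hippocampus by 0.54 ± 0.15 at 6 h and by 0.66 ± 0.15 at 12 h (adjusted p = 0.0411 and 0.00468), and Ddit3 by 0.26 ± 0.07 at 6 h (adjusted p = 0.041).

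The genes with the most similar pattern were sought among 12269 genes over the 8 group means, as the root-mean-square difference of log2 CPM after each tissue's mean was removed. Nearest to Ddit4 were Cdh19 (0.0433) and the glucocorticoid-induced Klf15 (0.0481), nearest to Pdk4 were Nde1 (0.045) and Glul (0.0451), and nearest to Gpd1 were Scd3 (0.042) and Nxn (0.0605). Mt1 and Mt2 were nearest to each other (0.0962), followed by Cbs for Mt1 (0.0981) and Gjb6 for Mt2 (0.123). Nearest to Txnip were Smim3 (0.0517) and Tbc1d4 (0.0534), to Irs2 Foxk1 (0.0386) and Sall3 (0.04), and to Cdkn1a Paqr5 (0.118) and Sdc4 (0.129). This is a description over 8 means, and no test was made.

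RefSeq promoter windows were given for 8 of the 10 genes (not for Angptl4 and Gpd1), with 2 windows for Cdkn1a. Both strands were searched for the glucocorticoid response element, AGAACA and TGTTCT separated by 3 bases, and no window of these genes held it, where 0.00913% of all windows did. The hexamer AGAACA alone was in none of them, where 19.0% of all windows held it. CACGTG was in the windows of Irs2 and Crispld2 (7.15% of all windows), GTAAACA, the core that FoxO factors bind, in that of Txnip (3.65%), and the hypoxia core ACGTG, which also lies inside CACGTG, in those of Irs2, Mt1, Crispld2 and Ddit4 (19.6%). TTCNNNGAA, the core that STAT factors bind, was in none (8.3%). No match says only that these letters are not in windows of 300 bases.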

How the data were processed

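Poly(A)-selected stranded RNA from hippocampus and frontal cortex was sequenced as paired reads of 150 bp, per the labels. The authors deposited 1 table of whole-number read counts per gene for the 30 libraries, not normalized. The submitters' processing notes name Trim Galore 0.4.1 and FastQC for trimming and quality, STAR 2.6.0a and DESeq2, and the mouse build GRCm38, also called mm10. The sources used here do not give the program that counted the reads, its strand setting or its annotation. Overlapping genes and Mt1 and Mt2 may therefore have shared or lost reads. Genes that overlap Txnip, Gpd1, Irs2 and Crispld2 on GENCODE M21 had at most 0.369 CPM in any library. Gm45774, antisense to Mt2, and AC167363.2, opposite Cdkn1a, also overlap and were not analysed here. Symbols were matched for 98.4% of the 48820 entries. No 2 libraries of a group agreed within sampling noise (lowest chi-square per gene 2.14).

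Genes passed edgeR's filterByExpr (minimum count 10, minimum total 15), which all 10 genes did in each fit. edgeR 4.0.16 (R 4.3.3) quasi-likelihood fits with TMM scaling and robust dispersion were made over 15 libraries of a tissue, or over all 30 for comparisons of tissues, with Benjamini-Hochberg adjustment over all genes tested. Standard errors are the log2 fold change over the root of the F statistic. Libraries are separate mice within a tissue, so each p-value of a comparison within a tissue measures the spread between mice, pooled over the groups of the tissue. The groups were not equally spread. In hippocampus Cdkn1a had an SD of 11.5 CPM after saline and at most 0.822 CPM after LPS. Ddit4 had 22.0 CPM and at most 3.48 CPM. For these genes the pooled spread may understate that between saline mice. Mt1 went the other way, with 15.0 CPM after saline and 38.7 CPM at 24 h. For comparisons of tissues, the reported fit treats the libraries of the same mouse as separate. Those p-values thus do not measure the spread of differences within mice, which the mouse block takes up. The libraries held 16826882 to 33034295 counts and gave each of the 10 genes between 40 and 9288 counts, so counting error was largest for Angptl4 and Crispld2.

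Mouse codes pair the tissues of 14 mice, since they come from the same animal. Over 10601 genes the median correlation of the paired deviations was 0.109 (-0.177 to 0.411), and 7 of 14 pairs were over 0.1. Alternatives were DESeq2 1.42.0 and its size factors, limma 3.58.1 (voom with quality weights), library totals, other filters, the compared groups alone, all 30 libraries in 1 fit, the mouse block, and leaving out libraries. The scripts were tested on simulated counts. The 10 genes, 9 pathway lists, 12 marker lists and the alternatives were chosen with earlier results of these data known. All 10 genes were named, with up to 3 genes of each pathway list that passed with the largest fold change. A gene that this rule names is not reported here. Protein sequences were not used here.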

Additional observations from a re-analysis of the deposited data

Results flagged for a closer look

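Of 60 gene and group combinations with 4 libraries, 5 held a library whose gap to its nearest neighbour exceeded Dixon's critical value for its group, where chance sets apart about 1 in 20. All 5 were in hippocampus. At 24 h after LPS, library A276 was the highest of its group for Pdk4, at 11.14 CPM against 9.291 CPM in the next, for Txnip, at 17 CPM against 10.95 CPM, and for Crispld2, at 5.652 CPM against 2.56 CPM. At 6 h, library A241 had 4.547 CPM of Angptl4 against 2.906 CPM in the next, and library A240 had 13.76 CPM of Txnip against 12.14 CPM. Without A276 the 24 h values were -0.63 for Pdk4, -0.81 for Txnip and -0.51 for Crispld2, on the log2 scale.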

How the results depend on the processing

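Over 2430 values of the 10 genes under the alternatives, no called value changed sign, 2287 kept their side of the threshold, 98 lost and 45 gained a call, and 199 changed sign among values that passed in neither fit. From 12 h to 24 h in hippocampus, 2 of the 10 were higher and 1 lower without a filter (0 each in the reported fit). Without a filter, 9 of the 10 were lower in hippocampus at 6 h (4), 3 in cortex at 12 h and 3 at 24 h (6 each), and 1 from 6 h to 12 h in cortex (2). In hippocampus that fit moved adjusted p far at nearly unchanged fold changes, which limits its counts. Txnip at 6 h had -0.57 (adjusted p = 9.07e-08) against -0.55 (0.105) in the reported fit. Mt2 from 6 h to 12 h had -0.74 (adjusted p = 2.65e-41) against -0.73 (0.0514). With the compared groups alone, 4 of the 10 were lower in hippocampus at 24 h (8), 1 in cortex at 6 h (0), 3 in cortex at 12 h (6), 1 from 6 h to 12 h in cortex (2) and 0 between tissues after saline (1). In cortex at 6 h (0), DESeq2 gave 3, limma-voom 1, DESeq2's size factors 1 and both tissues in 1 fit 3. Without hippocampal A222 and A261, which give no value for cortex, 2 were lower at 6 h (4), 5 at 24 h (8) and 1 from 6 h to 12 h (2), where library totals also gave 1. The replicate block gave 3 lower between tissues (1), and it changed no other call of the 10 genes. Leaving out 1 library at a time gave 2 to 6 lower in hippocampus at 6 h, 5 to 8 at 24 h and 0 to 2 from 6 h to 12 h; in cortex 0 to 2 at 6 h, 3 to 6 at 12 h and 0 to 2 from 6 h to 12 h; and 0 to 1 between tissues. Counts over all genes also moved. In hippocampus they were 1381 without a filter, 1548 by limma-voom, 570 without A222 and A261, and 519 at the lowest with 1 library left out at 6 h (884), and 1241 without A222 and A261 at 12 h (2134). From 6 h to 12 h (370) they were 894 without a filter, 660 by limma-voom, 152 with both tissues in 1 fit and 172 at the lowest with 1 library left out. From 12 h to 24 h (370) they were 975 without a filter, 206 with the compared groups alone, 199 without A222 and A261, 32 with both tissues in 1 fit and 194 at the lowest with 1 left out. In cortex, both tissues in 1 fit gave 1271 at 6 h (599), 1923 at 12 h (1219), 1581 at 24 h (1045) and 674 from 6 h to 12 h (210), limma-voom gave 1112 at 6 h and 1792 at 24 h, DESeq2 gave 476 from 6 h to 12 h, and leaving out 1 library gave 331, 755, 664 and 95 at the lowest. Differences between tissues (0, 17 and 22 genes at 6 h, then 12 h, then 24 h) were 6, 155 and 193 by limma-voom, 0, 74 and 61 by DESeq2, and 1, 1 and 14 with the compared groups alone. They were 10 at 12 h under DESeq2's size factors, 3 and 6 at 12 h and 24 h without A222 and A261, 8 and 6 with the replicate block, and 2 to 34 and 8 to 40 with 1 library left out. Over the scalings, the all-gene median shifted by 0.0787 or less on the log2 scale. The causes were not tested. With 3 saline libraries a tissue, calls near the threshold can be lost when any of several single mice is left out, and low counts limit Angptl4 and Crispld2.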

Other observations

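Library A276 of hippocampus at 24 h was also the highest of its group for Angptl4 (6.94 CPM), Mt1 (228 CPM) and Mt2 (136 CPM), and for the endothelial glucose transporter Slc2a1, chosen after its values were seen, at 110.2 CPM against 69.1 to 73.5 CPM in the other 3. Its 6 endothelial markers summed to 191 CPM, the highest of a group whose lowest was 167 CPM. It also had the highest sums of its group for neutrophil markers (8.98 CPM, against 2.81 to 4.08 CPM in the other 3) and astrocyte markers (1403 CPM). In cortex at 12 h, library A260 was the highest of its group for Angptl4 (7.71 CPM), Txnip (18.7 CPM), Crispld2 (5.14 CPM), Mt1 (204 CPM) and Mt2 (99.2 CPM), with 144 CPM of Slc2a1 and 234 CPM of endothelial markers, also the highest of its group. Its neutrophil markers summed to 15.1 CPM, against 7.82 to 11.2 CPM in the other 3, and its astrocyte markers to 950.3 CPM, the lowest of its group. The hippocampal library of mouse A260 had 64.7 CPM of Slc2a1, and the cortical library of mouse A276 had 82.4 CPM. The part of these cell types in these values was not tested.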
